A study of Rattus with 9 samples.

Results

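The cytochrome P450 enzymes of families 1, 2 and 3 oxidise drugs, pollutants, steroids and fatty acids, and their genes were followed here through 9 RNA sequencing libraries of rat liver. The set was taken as every protein-coding row of the expression table whose symbol is Cyp followed by 1, 2 or 3 and then a letter, which gave 34 rows with 33 symbols among 20236 rows in all. Livers came from Sprague-Dawley rats, an outbred laboratory strain, after 8 weeks of administration, with 3 libraries in each of 3 groups called normal control, model and pomegranate-high. The study concerns hyperlipidemia, a raised level of blood lipids, and pomegranate as its treatment. The labels do not say how the model was made, which preparation or dose the pomegranate-high rats received, whether those rats also carried the model, or the sex and age of any rat. Nothing in them ties a library to an animal of its own, so the p-values below measure only the spread between libraries, which may be technical. Library names below give the group and a number in sample order, which pairs nothing across groups.

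P450 enzymes of these families sit in the endoplasmic reticulum of hepatocytes, hold a haem group and take their electrons from the reductase encoded by Por. Several of their genes are switched on by receptors that sense foreign chemicals: AhR drives the Cyp1 genes, CAR the Cyp2b genes and PXR the Cyp3a genes. In the rat, growth hormone secretion differs between the sexes and sets which Cyp2c genes the liver uses, so that some of these enzymes are known as male-specific or female-specific.

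Depths recovered from the deposited FPKM values (fragments per kilobase of gene, scaled to the library's total) ran from 13678658 to 17966670 reads. Mitochondrial transcripts took their largest shares of reads in model 1 (14.5%) and in pomegranate-high 1 and 2 (9.62% and 11.4%), and took from 4.17% to 6.4% in the other 6 libraries. All 8 hepatocyte markers, among them Alb, Ttr and Tf, were present in every library, and their summed level ranged from 73590 to 81992 FPKM (normal control), 70349 to 77433 (model) and 54863 to 70382 (pomegranate-high). Alb alone gave 39271 to 45551 FPKM of this sum (normal control), 32136 to 48567.5 (model) and 23429 to 37185.5 (pomegranate-high). Between pomegranate-high and control livers 3 of the 8 hepatocyte markers were higher and 5 lower, so the lower sum was not shared by all of them. In pomegranate-high 1 and 2 the summed markers of bile duct cells (13.8 and 30.4 FPKM, against 6.19 to 8.79 in the other 7 libraries) and of stellate cells (67.2 and 98.1, against 21.7 to 46.1) were higher than in every other library. Single genes carried much of these sums, Col3a1 giving 51.4 and 61.5 FPKM of the stellate sums and Epcam and Spp1 most of the bile duct sums. Other markers did not follow, since Sox9 in pomegranate-high 1 (0.0357) was below 7 of the other libraries, Epcam in pomegranate-high 1 (7.75) was below control 2 (7.77), and Reln and the Lrat value of pomegranate-high 2 lay within the range of the controls or below it. All 5 bile duct markers were detected in both, with Krt7 at 0 in controls 1 and 3. All 6 stellate cell markers were above 0 in every library. Summed markers of red blood cells stood at 1259 to 1896 FPKM (normal control), 474 to 1256 (model) and 1491 to 2922 (pomegranate-high). Those of sinusoidal endothelium stood at 91.5 to 95.1 (normal control), 41.0 to 66.4 (model) and 49.99 to 88.2 (pomegranate-high). The 6 Kupffer cell markers summed to 166 to 308 FPKM (normal control), 65.6 to 150.1 (model) and 145 to 398 (pomegranate-high). The 6 lymphocyte markers summed to 1.75 to 5.92 FPKM over the 6 control and model libraries and 5.72 to 11.6 in the pomegranate-high libraries. The part of these cell markers in the differences below was not tested. In whole liver, fewer cells of a type and less RNA per cell cannot be told apart.

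Of the 34 rows, 14 had a mean of at least 100 FPKM in some group, 8 lay between 10 and 100, 3 between 1 and 10, and 9 stayed under 1. The 18 rows on chromosome 1 (build Rnor_6.0) include the Cyp2a, Cyp2b, Cyp2f, Cyp2s and Cyp2t genes of one stretch, all 8 Cyp2c rows, Cyp2e1 and Cyp2r1. The 4 Cyp2d rows lie on chromosome 7 and the 4 Cyp3a rows on chromosome 12. Summed over all 34 rows, the level was 9283, 8000.2 and 8765 FPKM (normal control), 15056, 8615 and 10744 (model) and 11685, 8434 and 9894 (pomegranate-high). Model 1 was the highest of the 9 and control 2 the lowest, and the 3 groups overlapped. The reads on these rows were 1.80% to 2.02% of each control library, 1.94% to 3.37% of the model libraries and 1.82% to 2.59% of the pomegranate-high libraries.

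**Figure D1:**
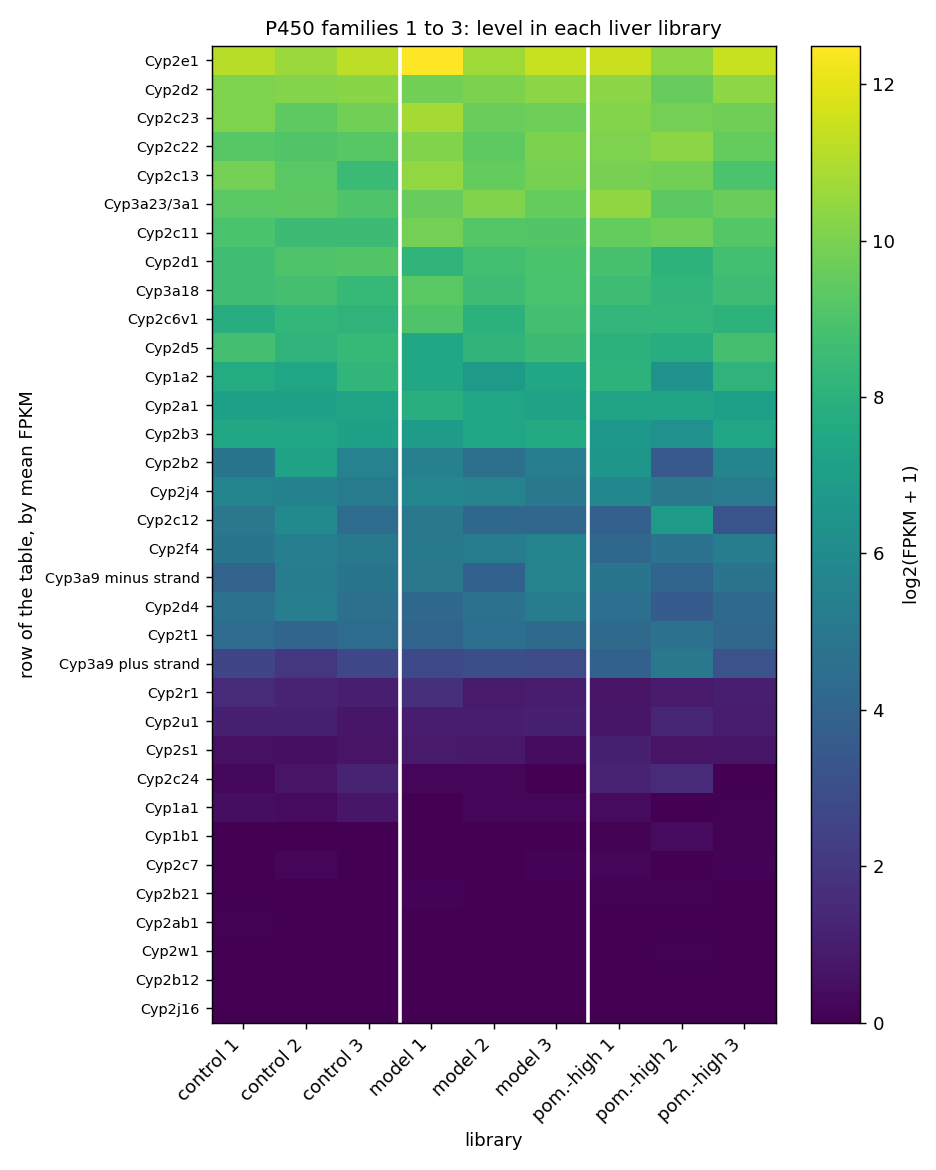
Level of each of the 34 rows (vertical, ordered by mean FPKM) in each of the 9 libraries (horizontal, 3 per group, split by white lines), coloured by log2(FPKM + 1). The 14 brightest rows, from Cyp2e1 to Cyp2b3, had a mean of at least 100 FPKM in some group, and the lowest 9 rows outside Cyp2c24 stayed under a mean of 1 in all groups.

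Cyp2e1, the ethanol- and paracetamol-oxidising enzyme (ENSRNOG00000012458, chromosome 1, 213511874 to 213535542, plus strand), was the most abundant row, at 2243, 1578 and 2445 FPKM (normal control), 5744, 1688 and 2751 (model) and 2901, 1339 and 2799 (pomegranate-high). It made up 38.1% of the summed level in model 1 and 15.9% in pomegranate-high 2, the highest and lowest share of the 9 libraries. Without Cyp2e1 the summed level of the other 33 rows was 7039.7, 6423 and 6319.7 FPKM (normal control), 9312, 6926 and 7993 (model) and 8784, 7094 and 7095 (pomegranate-high), and the model 1 library was still the highest. The 5 rows with the highest mean (Cyp2e1, Cyp2d2, Cyp2c23, Cyp2c22 and Cyp2c13) held 56.9% to 72.8% of the sum in each library.

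**Figure D2:**
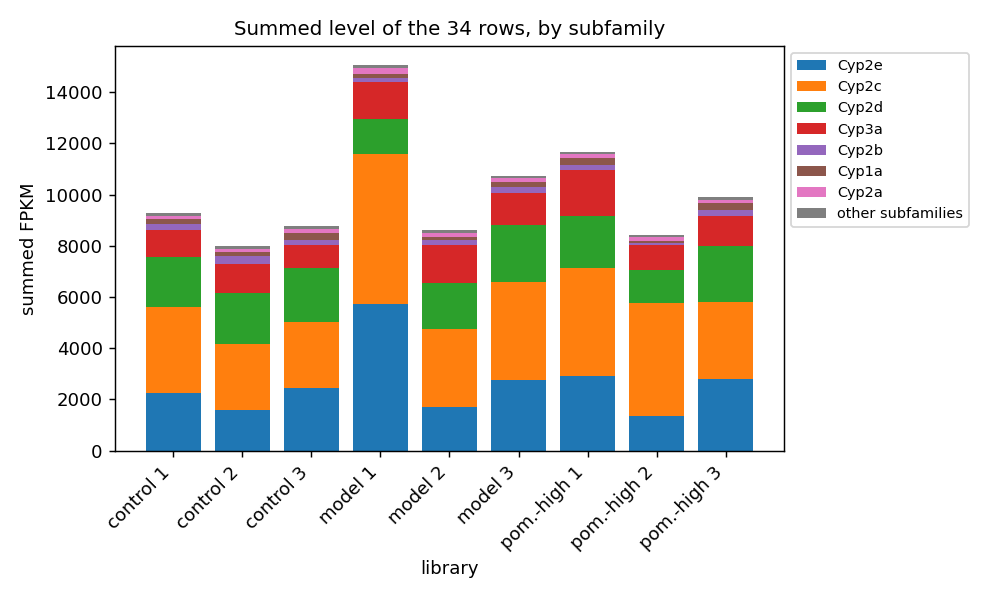
Summed FPKM of the 34 rows in each library (bars from 0), split by subfamily. Model 1 reached 15056 FPKM, with 5744 of them from Cyp2e1, and the 3 controls lay between 8000.2 and 9283.

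The Cyp2c subfamily, the largest of the set, summed to 3373, 2575 and 2570.1 FPKM (normal control), 5833, 3072 and 3853 (model) and 4235, 4423 and 2997 (pomegranate-high). Its share of all 34 rows was 29.3% to 38.7% in 8 libraries and 52.4% in pomegranate-high 2. Cyp2c11 (ENSRNOG00000052810, chromosome 1, 257970345 to 258004434, plus strand), the male-specific steroid hydroxylase of rat liver, stood at 488, 380.2 and 374 FPKM (normal control), 951, 595 and 560.2 (model) and 744, 838 and 578 (pomegranate-high). Each model and each pomegranate-high library was above all 3 controls, and the latter groups overlapped each other. Cyp2c22 (ENSRNOG00000021924, chromosome 1, 259257657 to 259287684, minus strand) is listed by RefSeq under the older name Cyp2c70, which in the mouse makes muricholic bile acids, and stood at 599, 539 and 612 FPKM (normal control), 1098, 679 and 1036 (model) and 1070.3, 1292 and 752 (pomegranate-high). Here too all 6 libraries of the other arms lay above the controls, while model and pomegranate-high overlapped. Cyp2c13, a male-specific relative, stood at 945, 619 and 358 FPKM (normal control), 1428, 738 and 966 (model) and 963, 922 and 492 (pomegranate-high), and all 3 groups overlapped. Cyp2c23, an epoxygenase of arachidonic acid, stood at 1091, 673 and 923 FPKM (normal control), 1796, 781 and 842 (model) and 1140.3, 951 and 893 (pomegranate-high). Model 1 was its highest library and the groups overlapped.

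Cyp2c6v1, the phenobarbital-responsive member, stood at 219, 305 and 282 FPKM (normal control), 529, 262 and 432 (model) and 303, 308 and 273 (pomegranate-high), with model 2 inside the range of the controls. Cyp2c12, the female-specific steroid sulfate hydroxylase, stood at 30.1, 58.9 and 20.2 FPKM (normal control), 30.9, 17.5 and 16.1 (model) and 13.0, 109.7 and 8.54 (pomegranate-high). Pomegranate-high held both its highest and its lowest library, a 12.8-fold range within that group. Cyp2c24, for which no role is given here, was near the limit of detection at 0.187, 0.575 and 1.40 FPKM (normal control), 0.110, 0.154 and 0 (model) and 1.26, 1.79 and 0.0309 (pomegranate-high). All 3 model libraries lay below the controls, whereas the pomegranate-high arm overlapped both, with pomegranate-high 2 the highest of the 9. Cyp2c24 entered the test through control 3 and pomegranate-high 1 and 2, the libraries with at least 1 FPKM. The row called Cyp2c7, a gene model of only 783 bp, held 0 to 2 reads per library.

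Among the Cyp2d genes, which oxidise many basic drugs, Cyp2d2 stood at 1089, 1141 and 1222 FPKM (normal control), 902, 1034 and 1286 (model) and 1261, 778 and 1315 (pomegranate-high). It had one of the narrowest ranges of the abundant rows, 1.69-fold over 9 libraries. Cyp2d1 stood at 399, 535 and 557 FPKM (normal control), 288, 423 and 490.2 (model) and 464, 266 and 414 (pomegranate-high) and Cyp2d5 at 438, 279 and 325 FPKM (normal control), 176, 291 and 381 (model) and 264, 221 and 441 (pomegranate-high). Model 1 and pomegranate-high 2 were the lowest libraries of both, and the groups overlapped. Cyp2d4 (ENSRNOG00000032261, chromosome 7, 123599266 to 123608436, minus strand), a less abundant relative, stood at 25.2, 39.3 and 23.5 FPKM (normal control), 16.9, 25.2 and 38.1 (model) and 22.4, 11.3 and 18.9 (pomegranate-high). All 3 pomegranate-high libraries lay below the 3 controls, and the model arm overlapped both. Together the 4 rows gave 1952, 1995 and 2128 FPKM (normal control), 1383, 1774 and 2196 (model) and 2011, 1276 and 2188 (pomegranate-high), or 9.18% of the summed P450 level in model 1 and 24.9% in control 2.

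Of the Cyp3a genes, which hydroxylate steroids and many drugs, Cyp3a23/3a1, a PXR-inducible member, stood at 634, 639 and 533 FPKM (normal control), 755, 1101 and 751 (model) and 1384, 639.6 and 783 (pomegranate-high). Every library of the other arms was above the 3 controls, the lowest of them (pomegranate-high 2) by less than 1 FPKM. Cyp3a18 stood at 407, 449 and 329.5 FPKM (normal control), 635, 384 and 473 (model) and 395, 302 and 384 (pomegranate-high), with all groups overlapping. Rows named Cyp3a9 occur on both strands of chromosome 12, while RefSeq's GRCr8 gene table has 1 gene of that name. Which of them the later gene corresponds to was not resolved, so they are called by strand. Cyp3a9 on the plus strand (ENSRNOG00000001379, chromosome 12, 18678594 to 18709397, plus strand) stood at 5.04, 2.88 and 5.40 FPKM (normal control), 5.69, 6.99 and 6.46 (model) and 13.8, 31.5 and 8.17 (pomegranate-high). It was the row whose 3 groups did not overlap at all, controls lowest and pomegranate-high highest. Cyp3a9 on the minus strand (19074583 to 19114399) stood at 14.6, 37.8 and 27.5 FPKM (normal control), 29.8, 13.9 and 47.1 (model) and 28.0, 15.3 and 26.6 (pomegranate-high), with no such order, and all 3 groups overlapped.

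Among the Cyp1 genes, Cyp1a2, the enzyme that oxidises caffeine and aromatic amines, stood at 205, 167 and 293 FPKM (normal control), 179, 112 and 179 (model) and 271, 80.7 and 275 (pomegranate-high). Pomegranate-high 2 was the lowest and the other pomegranate-high libraries lay within the range of the controls. Cyp1a1, which AhR switches on after exposure to polycyclic aromatic hydrocarbons, was hardly present, with 16, 12 and 33 recovered reads (normal control), 1, 5 and 8 (model) and 13, 0 and 3 (pomegranate-high). That is 0.375, 0.274 and 0.696 FPKM (normal control), 0.0277, 0.116 and 0.178 (model) and 0.301, 0 and 0.0699 (pomegranate-high), where the limit allowed by a count of 0, taken as 3 reads, lies at 0.0633 to 0.0831 FPKM. Every model library was below the controls, and pomegranate-high overlapped both. Cyp1b1, an oestrogen hydroxylase of tissues other than liver, held 0 to 4 reads in 8 libraries and 22 in pomegranate-high 2. Such floors and read numbers cover counting error only.

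In the stretch of chromosome 1 that carries Cyp2a, Cyp2b, Cyp2f, Cyp2s and Cyp2t, Cyp2b2, the classic target of phenobarbital through CAR, stood at 28.3, 146 and 45.8 FPKM (normal control), 41.8, 23.0 and 40.0 (model) and 97.2, 10.1 and 51.0 (pomegranate-high). Control 2 was the highest of the 9 libraries and pomegranate-high 2 the lowest, a 14.4-fold range, the widest of the rows present in every library. Cyp2b3 was steadier, at 178, 165 and 143 FPKM (normal control), 117, 164 and 201 (model) and 101, 79.6 and 160.3 (pomegranate-high). Pomegranate-high 1 and 2 lay below the 7 other libraries for Cyp2b3. Cyp2a1, a testosterone hydroxylase, stood at 142, 141 and 155 FPKM (normal control), 226, 164 and 145 (model) and 154, 154 and 130.1 (pomegranate-high), with model 1 highest. Cyp2f4, an enzyme best known from lung, stood at 27.8, 41.4 and 32.0 FPKM (normal control), 32.2, 38.6 and 48.1 (model) and 16.9, 26.1 and 37.6 (pomegranate-high), with pomegranate-high 1 lowest. Cyp2t1 stood at 19.3, 16.0 and 20.6 FPKM (normal control), 15.3, 22.2 and 19.0 (model) and 19.0, 24.1 and 16.2 (pomegranate-high), a 1.58-fold range. It was the narrowest range of all rows present in every library. Cyp2s1, mainly an enzyme of other tissues, stayed between 0.334 and 1.14 FPKM.

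Of the remaining rows, Cyp2j4, a fatty acid hydroxylase, stood at 49.5, 43.2 and 34.5 FPKM (normal control), 54.7, 47.5 and 31.4 (model) and 55.3, 29.8 and 35.4 (pomegranate-high). Cyp2r1, the vitamin D 25-hydroxylase, stood at 1.79, 1.39 and 1.09 FPKM (normal control), 2.29, 0.867 and 1.00 (model) and 0.578, 0.840 and 1.09 (pomegranate-high), and Cyp2u1, a hydroxylase of long-chain fatty acids, at 1.13, 1.12 and 0.669 FPKM (normal control), 0.935, 0.923 and 1.11 (model) and 0.687, 1.46 and 1.00 (pomegranate-high). In each of these 3 genes the groups overlapped. Cyp2ab1, Cyp2b12, Cyp2b21, Cyp2j16 and Cyp2w1 held 0 to 2 reads in every library. They were at or under the limit that a count of 0 allows and were not compared.

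The 25 rows with at least 1 FPKM in at least 3 libraries were tested, together with 11078 genes in all, by limma on log2(FPKM + 1), with Benjamini-Hochberg adjustment over all genes and a threshold of 0.05. All differences below are on that log2 scale, which understates the change of low genes.

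The first comparison asked how model livers differed from normal control livers. By limma 0 of the 25 rows passed (smallest adjusted p = 0.999), where 1 of all 11078 genes did, a background of 0.00903%, and voom on recovered reads called 0 rows as well. The median difference of the 25 rows was 0.05, with 15 higher and 10 lower, and that of all genes tested was −0.03. At an unadjusted p under 0.05 there were 2 rows, Cyp2c11 and Cyp2c22, both higher in the model arm, against a background of 2.98% (1.2% higher and 1.78% lower). Cyp2c11 averaged 414 ± 64.3 FPKM in control and 702 ± 217 in model livers (mean ± SD, n = 3 each, difference 0.73 ± 0.28 SE). Cyp2c22 averaged 583 ± 39.1 and 938 ± 226 (0.66 ± 0.29 SE). That count of 2 was 0 without control 2, control 3 or model 1 and also once the fit took in the mitochondrial share. It was 1 without model 3, without pomegranate-high 1 or with median-of-ratios scaling. It was 3 without model 2, without pomegranate-high 3 or with library quality weights. With no filter 1 row was higher and 1 lower, where 666 of 19840 genes had such a p. Of all 11078 genes, 330 had such a p in the main fit and 189 to 413 in the fits that gave 0 rows. In the fits that gave 1 row they were 356 (without model 3), 364 (without pomegranate-high 1) and 369 (median-of-ratios scaling). In the fits that gave 3 rows they were 444 (without model 2), 387 (without pomegranate-high 3) and 864 (quality weights). Without model 1, the library with the highest mitochondrial share, the difference of Cyp2c11 was 0.49 and that of Cyp2c22 was 0.53.

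The next smallest p on the higher side belonged to Cyp2c6v1 (0.55 ± 0.29 SE) and Cyp2c13 (0.76 ± 0.42 SE). On the lower side they were Cyp2c24 (−0.60 ± 0.37 SE), Cyp2d1 (−0.33 ± 0.31 SE), Cyp1a2 (−0.49 ± 0.46 SE) and Cyp2b2 (−0.75 ± 0.77 SE). All 6 had an adjusted p of 0.999 by limma. Single libraries moved each of them. Without model 1 Cyp2c6v1 was at 0.34 and Cyp2d1 at −0.11, and without control 3 Cyp2c13 was at 0.39, Cyp2c24 at −0.33 and Cyp1a2 at −0.27. Without model 2 Cyp2c6v1 was at 0.84 and Cyp1a2 at −0.26. Cyp2b2 was at −0.09 without control 2, the library at 146 FPKM. In 5 of the 25 rows the groups did not overlap, against 8.79% of all genes tested. Cyp2c11, Cyp2c22, Cyp3a23/3a1 and Cyp3a9 on the plus strand were higher in all 3 model libraries (background 3.97%), and Cyp2c24 was lower (background 4.82%). Cyp2c24 had passed the filter through control 3 and pomegranate-high 1 and 2, with no model library. Its groups were parted by 6 reads in control 1 and 5 in model 2. Its low model values are therefore not read as a result.

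The second comparison asked how pomegranate-high livers differed from model livers. Again 0 of 25 rows passed by limma, where 1 of 11078 genes did (0.00903%), the haemoglobin gene Hba-a3 (adjusted p = 0.0386), and voom called 0 rows. The median difference was −0.07 with 12 rows higher and 13 lower, and that of all genes was 0.09. With quantile normalization 8 rows were higher, and with TPM or median-of-ratios scaling 7 were. The share of all genes that were higher moved with the scaling too. It was 61% in the main fit, 48% with quantile normalization, 50.3% with TPM and 49.3% with median-of-ratios scaling. At an unadjusted p under 0.05 there was 1 row, against a background of 8.69% (7.12% higher and 1.57% lower), namely Cyp3a9 on the plus strand, which averaged 6.38 ± 0.653 and then 17.8 ± 12.2 FPKM (mean ± SD, n = 3 each, 1.16 ± 0.40 SE, limma adjusted p = 0.489, range over 21 alternatives 0.0769 to 1.0). Its difference was 0.66 without pomegranate-high 2 and 0.25 without the 3 libraries of highest mitochondrial share. It was also the row whose groups did not overlap, against 10.8% of all genes (8.78% higher and 2.05% lower). In brackets below stand the genes at an unadjusted p under 0.05 among all 11078, which were 963 in the main fit. The number of rows at that level was 3 without model 1 (725), 2 without model 2 (1284) and 4 without pomegranate-high 3 (1984). It was 5 with library quality weights (1925) and 3 with median-of-ratios scaling (959), quantile normalization (942) or the mitochondrial share as a covariate (1371).

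On the higher side the next rows were Cyp2c24 (0.78 ± 0.37 SE), Cyp1a2 (0.25 ± 0.46 SE) and Cyp2c22 (0.14 ± 0.29 SE). Cyp2c24 was tested only through control 3 and pomegranate-high 1 and 2, so its higher value here is not read as a result. The signs of all 3 rows rested on single libraries or settings. The Cyp1a2 value was −0.04 without pomegranate-high 1, −0.05 without pomegranate-high 3 and −0.12 with library quality weights. Without the 3 libraries of highest mitochondrial share Cyp2c24 stood at −0.06 and Cyp2c22 at −0.16, and Cyp2c22 was also below 0 without model 2 (−0.07) or pomegranate-high 2 (−0.03). On the lower side stood Cyp2f4 (−0.60 ± 0.31 SE), Cyp2b3 (−0.53 ± 0.31 SE), Cyp3a18 (−0.44 ± 0.27 SE) and Cyp2d4 (−0.56 ± 0.35 SE), with limma adjusted p from 0.609 to 0.664. They stayed negative in every alternative, but their size rested on single libraries. Cyp2f4 was at −0.31 without pomegranate-high 1, Cyp3a18 at −0.25 without model 1, and Cyp2d4 at −0.28 without model 3 and −0.29 without pomegranate-high 2. Cyp2b3 was at −0.31 without pomegranate-high 2 and −0.81 without pomegranate-high 3. Without the 3 libraries of highest mitochondrial share Cyp2f4 was at −0.19, Cyp2b3 at −0.18 and Cyp3a18 at −0.15.

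The third comparison set pomegranate-high livers against normal control livers and shares its samples with the other comparisons. By limma 0 of 25 rows passed, where 2 of 11078 genes did (0.0181%), and voom called 0 rows. The median difference was −0.08 with 11 rows higher and 14 lower, and that of all genes was 0.07. With TPM 8 were higher and 17 lower (median −0.21), and with median-of-ratios scaling 10 were higher and 15 lower (median −0.15). Of all genes, 57.4% were higher in the main fit, 45.9% with TPM and 50.9% with median-of-ratios scaling. At an unadjusted p under 0.05 there were 3 rows, all higher, against a background of 10.2% (7.24% higher and 2.92% lower). In brackets stand the genes at that level among all 11078, which were 1125 in the main fit. That direction depended on the scaling, with 1 higher and 2 lower under median-of-ratios scaling (1168). Under quantile normalization 3 were higher and 1 lower (1191), and without pomegranate-high 2 there were 2 higher and 1 lower (588). Cyp3a9 on the plus strand averaged 4.44 ± 1.36 FPKM in control and 17.8 ± 12.2 in pomegranate-high livers, a 4.02-fold ratio of the means (n = 3 each, 1.63 ± 0.40 SE, limma adjusted p = 0.285, range over 21 alternatives 0.0312 to 0.858). Its difference was 1.13 without pomegranate-high 2, the library at 31.5 FPKM. Without pomegranate-high 3 it passed (2.05, limma adjusted p = 0.0312), in a fit that called 328 genes in place of 2. Cyp3a9 on the plus strand was highest in pomegranate-high 2 and next in pomegranate-high 1, the libraries with the highest summed bile duct and stellate cell markers given above, whose part in the result was not tested. Without the 3 libraries of highest mitochondrial share the difference was 0.79.

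The other rows at that level were Cyp2c11 (720.3 ± 131 FPKM in the pomegranate-high arm, 0.79 ± 0.28 SE, limma adjusted p = 0.418) and Cyp2c22 (1038 ± 272 FPKM, 0.80 ± 0.29 SE, limma adjusted p = 0.421). Their differences ranged from 0.67 to 0.94 and from 0.62 to 1.01 when 1 library at a time was left out, and were 0.49 and 0.37 without the 3 libraries of highest mitochondrial share. The count of 3 was 1 without control 2 and 5 (3 higher and 2 lower) with library quality weights. Of all 11078 genes, 1125 were at that level in the main fit, 647 without control 2 and 2224 with quality weights. Cyp3a23/3a1 (0.56 ± 0.32 SE) completed the higher side, and its difference was 0.24 without pomegranate-high 1. Cyp2d4 (−0.73 ± 0.35 SE), Cyp2b3 (−0.57 ± 0.31 SE), Cyp2r1 (−0.40 ± 0.26 SE) and Cyp2d1 (−0.40 ± 0.31 SE) had the smallest p on the lower side, with limma adjusted p from 0.518 to 0.637. Without pomegranate-high 2 Cyp2d4 was at −0.46, Cyp2b3 at −0.34 and Cyp2d1 at −0.17. Without the 3 libraries of highest mitochondrial share Cyp2b3 was at −0.01, Cyp2r1 at −0.20 and Cyp2d1 at −0.25. In 5 of the 25 rows the groups did not overlap, against 16.1% of all genes: Cyp2c11, Cyp2c22, Cyp3a23/3a1 and Cyp3a9 on the plus strand higher (background 12.4%) and Cyp2d4 lower (background 3.66%).

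**Figure D3:**
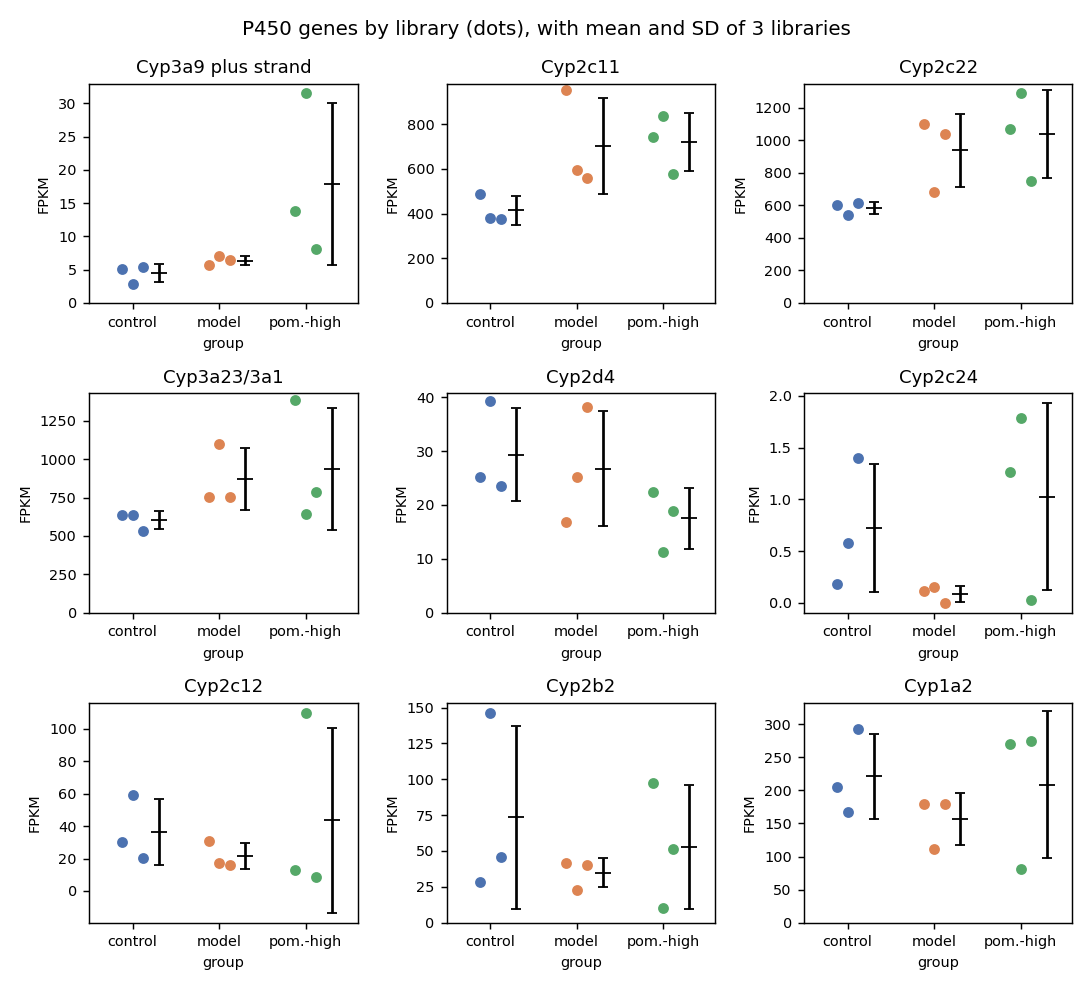
FPKM (vertical) of 9 P450 rows in each library (dots, 3 per group), with the mean and SD of 3 libraries in black. Cyp3a9 on the plus strand is the panel in which no groups overlap, Cyp2c11 and Cyp2c22 have all 6 libraries of the other arms above the controls, and Cyp2c12, Cyp2b2 and Cyp1a2 show single libraries far from the rest of their group.

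**Figure D4:**
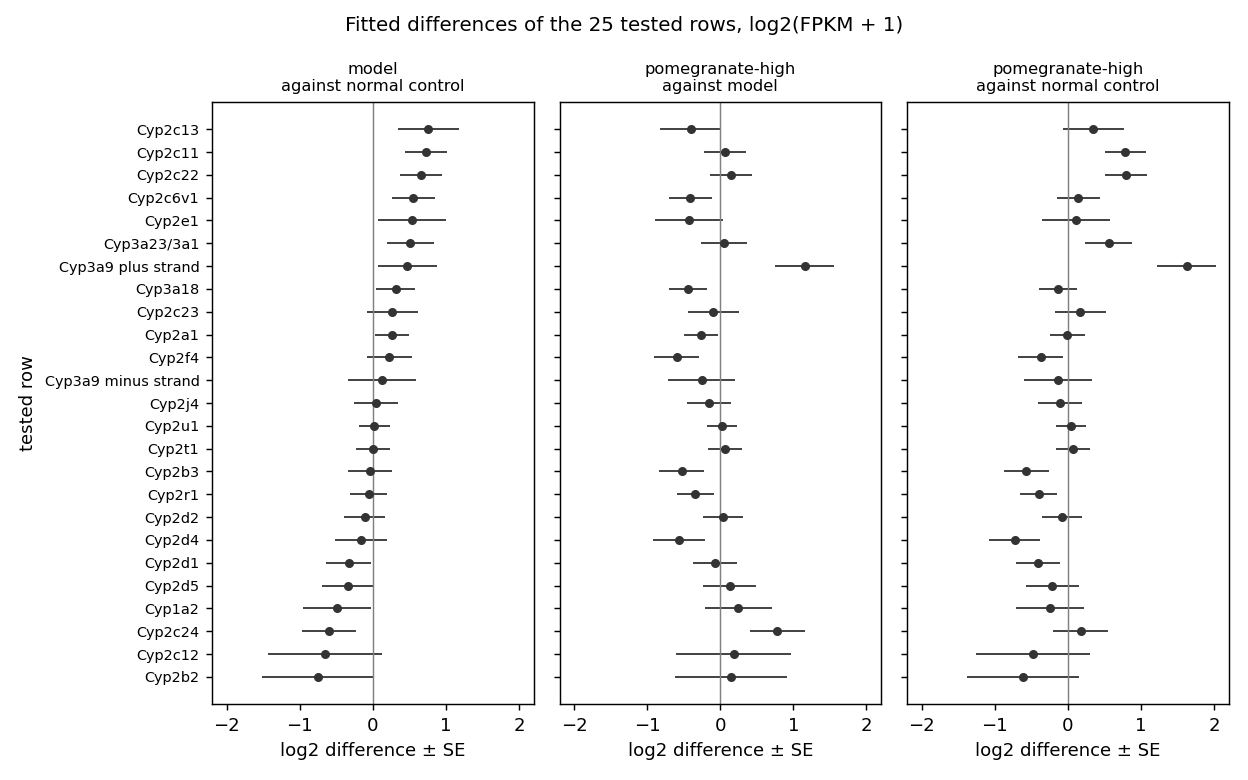
Fitted log2 differences (dots, horizontal) with standard errors (bars) of the 25 tested rows (vertical) in the 3 comparisons, on the scale of log2(FPKM + 1). Values lie on both sides of 0 in each panel, the largest being Cyp3a9 on the plus strand in pomegranate-high against normal control (1.63 ± 0.40).

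Single libraries stood apart across the set. Model 1 was the highest of 9 for 8 of the 25 tested rows (32.0%, and 12.5% of all genes tested), namely Cyp2a1, Cyp2c11, Cyp2c13, Cyp2c23, Cyp2c6v1, Cyp2e1, Cyp2r1 and Cyp3a18. It was the lowest for 2 rows (8.0%) but for 32.7% of all genes. Pomegranate-high 2 was the lowest for 9 rows (36.0%, and 7.39% of all genes), namely Cyp1a2, Cyp2b2, Cyp2b3, Cyp2d1, Cyp2d2, Cyp2d4, Cyp2e1, Cyp2j4 and Cyp3a18. It was the highest for 6 rows (24%), near the 21.3% of all genes. No test was made of these shares. The within-group SD of log2(FPKM + 1) had a median over the 25 rows of 0.26 (normal control), 0.40 (model) and 0.46 (pomegranate-high), beside 0.23, 0.33 and 0.35 over all genes. In the pomegranate-high arm it ran from 0.10 for Cyp2c6v1 to 1.90 for Cyp2c12.

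Reads of near-identical copies limit what a single row can say. Per the table's own UniProt column or symbol, 13 rows outside the rule also belong to P450 families 1 to 3. Cyp3a2, the male-predominant relative of Cyp3a23/3a1, is classed as a processed transcript and lies inside the interval of Cyp3a23/3a1 on the same strand. It stood at 2151, 1969 and 1194 FPKM (normal control), 1938, 1252 and 2278 (model) and 354, 622 and 2243 (pomegranate-high). Pomegranate-high 1 had the lowest Cyp3a2 and the highest Cyp3a23/3a1. The sum of both was 2786, 2608 and 1726 FPKM (normal control), 2693, 2353 and 3029 (model) and 1738, 1261 and 3026 (pomegranate-high), with overlapping groups. The Cyp3a2 row is 799 bp long and the Cyp3a23/3a1 row 2758 bp, so a read adds more to this sum on Cyp3a2. The sum therefore does not undo a division of reads between the copies, and the arms are not ranked by it. How reads were divided between these copies was not tested. By limma Cyp3a2 differed by −1.16 ± 0.58 SE between pomegranate-high and model (adjusted p = 0.601).

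For Cyp2c7, a female-predominant gene also used by male liver, the named row was nearly empty while 3 rows annotated as 2C7 in the UniProt column were not. The row AABR07004549.1, classed as a lincRNA, stood at 1537, 1112 and 953 FPKM (normal control), 2211, 1242 and 933 (model) and 1187, 1774 and 1104 (pomegranate-high). The rows LOC100361547 on the minus and plus strands stood at 197 to 928 and at 20.0 to 145 FPKM. Their sum with AABR07004549.1 was 2609.7, 1930.0 and 1523 FPKM (normal control), 3156, 1799 and 1679 (model) and 1404, 2334 and 1854 (pomegranate-high), and the groups overlapped. LOC108348266, annotated as 2B1, the nearest relative of Cyp2b2, stood at 21.2, 30.0 and 45.2 FPKM (normal control), 12.3, 11.7 and 5.03 (model) and 38.1, 4.23 and 34.7 (pomegranate-high). All 3 model libraries of LOC108348266 were below the controls (log2 difference −1.65 ± 0.69 SE, limma adjusted p = 0.999). With all 13 rows added, the summed P450 level was 14214, 12056 and 11625 FPKM (normal control), 20598, 11797 and 14868 (model) and 13557, 11477 and 14167 (pomegranate-high). Cyp2a2, Cyp2b1, Cyp2c6 and Cyp3a62 were not analysed here by those symbols. Cyp2t1 overlaps Egln2 on the opposite strand, a gene at 15.7 to 62.4 FPKM, and since the use of strand in counting is not stated, reads of the pair cannot be told apart.

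**Figure D5:**
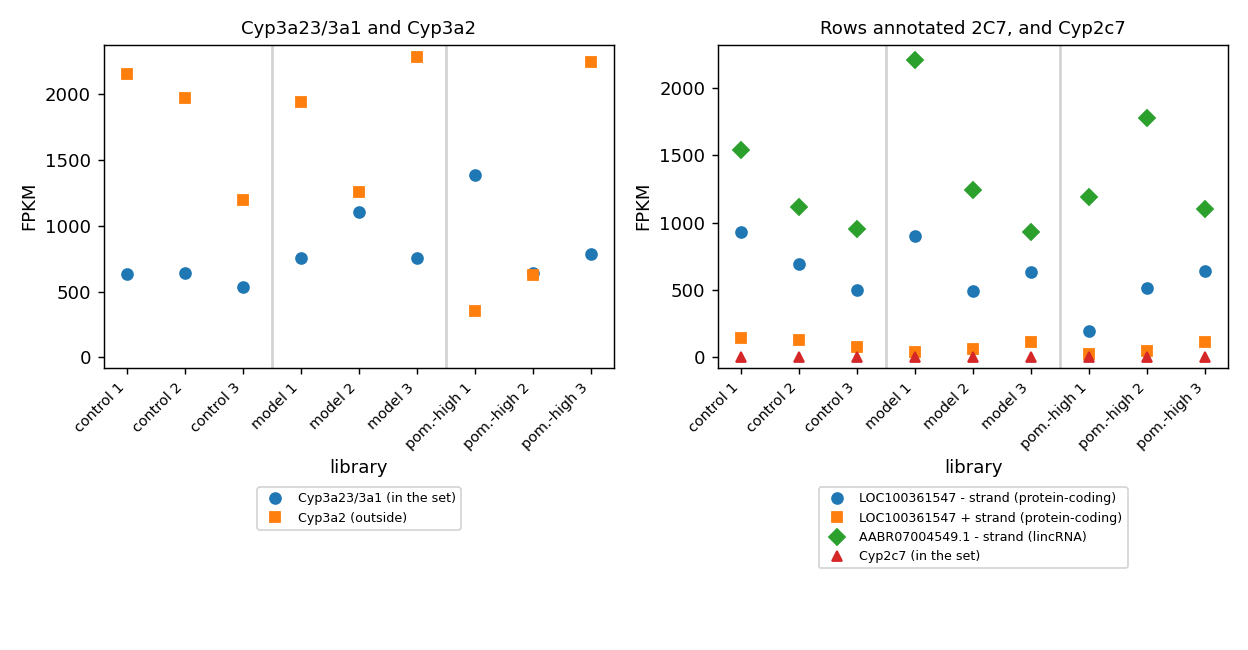
FPKM (vertical) in each library (horizontal, groups split by grey lines) of Cyp3a23/3a1 with the overlapping Cyp3a2 on the left, and of 3 rows annotated 2C7 with the row named Cyp2c7 on the right. Cyp3a2 is at 354 FPKM in pomegranate-high 1 where Cyp3a23/3a1 reaches 1384, and the row named Cyp2c7 stays at or near 0 in all 9 libraries.

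The partners of these enzymes were read from lists chosen for their role. By limma 0 of the 6 electron donors and membrane partners passed in any comparison, and 0 had an unadjusted p under 0.05. Por, the reductase, stood at 311, 291 and 214 FPKM (normal control), 207, 251 and 331 (model) and 376, 75.4 and 229 (pomegranate-high), with pomegranate-high 2 lowest. Cyb5r3, the reductase of cytochrome b5, stood at 125, 159.7 and 141 FPKM (normal control), 244, 107 and 161 (model) and 127, 113 and 118 (pomegranate-high), with model 1 highest. Pgrmc2 and Cyb5b had smaller p than Cyb5r3. Pgrmc2 stood at 66.2, 70.6 and 57.4 FPKM (normal control), 59.9, 68.6 and 54.3 (model) and 66.3, 82.1 and 131 (pomegranate-high). Cyb5b stood at 20.9, 37.2 and 17.3 FPKM (normal control), 25.5, 22.7 and 21.6 (model) and 16.7, 15.1 and 20.2 (pomegranate-high). Of 8 haem synthesis genes 0 passed and 0 had an unadjusted p under 0.05. Alas1, the rate-limiting enzyme of haem synthesis, stood at 143, 252 and 165 FPKM (normal control), 140.1, 149 and 158 (model) and 204, 43.6 and 84.1 (pomegranate-high), again with pomegranate-high 2 lowest. Of 4 haem breakdown genes 0 passed. Hmox1, the haem oxygenase, stood at 23.5, 28.7 and 32.7 FPKM (normal control), 5.93, 27.6 and 16.1 (model) and 44.0, 62.0 and 31.6 (pomegranate-high). It and the biliverdin reductase Blvra had an unadjusted p under 0.05 in pomegranate-high against model, where 8.69% of all genes had one, both higher. Blvra also had one in pomegranate-high against normal control, where 10.2% of all genes did.

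Of 15 rows for receptors and factors that drive P450 genes 0 passed by limma, with 0, 2 and 3 at an unadjusted p under 0.05 in the 3 comparisons in the order given above, against backgrounds of 2.98%, 8.69% and 10.2%. Rxra, the shared partner of PXR and CAR, stood at 109.6, 131 and 109 FPKM (normal control), 43.2, 75.6 and 124 (model) and 6.19, 11.7 and 97.5 (pomegranate-high). It was lowest in pomegranate-high 1 and 2 (mitochondrial shares of 9.62% and 11.4%) and next lowest in model 1 (14.5%). All 3 pomegranate-high libraries of Rxra lay below the controls, as in 3.66% of all genes, while pomegranate-high 3 lay inside the range of the model arm. The Rxra difference between pomegranate-high and control livers was −2.49 ± 0.79 SE (limma adjusted p = 0.395). A link of Rxra to the mitochondrial share was not tested. Nr1i2, which encodes PXR, stood at 163, 149.9 and 144 FPKM (normal control), 87.3, 148 and 112 (model) and 110.4, 58.3 and 101 (pomegranate-high), with all 3 pomegranate-high libraries below the controls. Ahr stood at 5.64, 7.49 and 5.11 FPKM (normal control), 8.37, 4.36 and 4.94 (model) and 12.7, 6.73 and 12.8 (pomegranate-high), and Nr1i3, which encodes CAR, at 34.5, 111 and 62.6 FPKM (normal control), 71.8, 104 and 119.8 (model) and 129, 24.9 and 159 (pomegranate-high). Among AhR targets outside the set, 2 of 4 matched genes were tested and 0 passed. Nqo1, a quinone reductase, stood at 18.6, 3.43 and 47.5 FPKM (normal control), 42.1, 25.0 and 33.8 (model) and 52.2, 11.2 and 30.8 (pomegranate-high), with controls spanning nearly the whole range. Among CAR and PXR targets outside the set, 9 of 11 matched genes were tested and 0 passed, with 1, Aldh1a7, at an unadjusted p under 0.05 in pomegranate-high against normal control, where 10.2% of all genes had one.

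The P450 genes were also grouped by their known sex bias. Of the 4 male-predominant rows tested (Cyp2c11, Cyp2c13, Cyp3a18 and the processed transcript Cyp3a2), 4 were higher in model than in control livers, where 45.9% of all genes were, with a median of 0.52 beside −0.03 for all genes. Cyp3a2 was among them at 0.04 ± 0.58 SE, and model 1 was the highest library for Cyp2c11, Cyp2c13 and Cyp3a18. In pomegranate-high against model 1 was higher and 3 were lower, with a median of −0.42, and against the controls 2 were higher and 2 lower. Of all genes, 61% were higher in pomegranate-high against model and 57.4% against the controls. Of the 4 female-predominant rows tested, 3 were higher and 1 lower in model than in control livers, where 45.9% of all genes were higher. Their median was 0.19. Both Cyp3a9 rows are counted in this list, and the 3 rows annotated 2C7 are not in it. In pomegranate-high against model 2 were higher and 2 lower, and against the controls 1 was higher and 3 lower. Cyp2a1 differed by 0.27 ± 0.23 SE and Cyp2c12 by −0.65 ± 0.78 SE between model and control livers, and by −0.00 ± 0.23 SE and −0.47 ± 0.78 SE between pomegranate-high and control livers. Across the 3 comparisons Cyp3a9 differed by 0.47 ± 0.40, 1.16 ± 0.40 and 1.63 ± 0.40 SE on the plus strand. On the minus strand it differed by 0.12 ± 0.46, −0.26 ± 0.46 and −0.13 ± 0.46 SE. In the list of growth hormone and sex-biased control genes, 15 rows were tested and 0 passed by limma, with 2 at an unadjusted p under 0.05 in each of the 3 comparisons, against backgrounds of 2.98%, 8.69% and 10.2% of all genes. Both were higher in the first comparison, 1 was higher and 1 lower in the second, and both were lower in the third. A row of Mup4 was among them, at 2.66 ± 0.49 SE in the first and −2.56 ± 0.49 SE in the second. The other Mup4 row differed by 0.01 ± 0.87 SE and −0.29 ± 0.87 SE.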

How the data were processed

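Poly(A) RNA of 9 liver libraries was sequenced after oligo(dT) selection and a strand-marking step, per the labels' protocols. The authors deposited 1 table of FPKM values with 20236 rows and 1 column per library. Build Rnor_6.0 comes from the submitters' processing notes, which list HTSeq 0.6.0, Bowtie2 2.2.3, TopHat2, HISAT2, DESeq and DESeq2 without saying what each did. No source used here states how reads on several copies or on both strands were counted, so values of multi-copy P450 rows are uncertain. FPKM divides by the library total, so a few abundant genes can shift the rest.

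Every value was a whole multiple of 1 read, which gave depths and gene lengths. With these, 100% of 146433 values above 0 came out whole within 0.02 reads. Since lengths were chosen for wholeness, the check is the recovered sum, which reached at least 99.986% of each depth. No pair of libraries shared its values (84.7% or more of them differed). All 9 columns were matched by title.

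Genes with FPKM of at least 1 in at least 3 libraries were fitted with limma 3.58.1 (R 4.3.3) on log2(FPKM + 1), 3 groups in 1 fit with an intensity trend, two-sided. The fit was also run on simulated libraries drawn from the control means, with the same spread for all genes and no outlying libraries. That setting is simpler than these data, so no conclusion is drawn from it. Samples were grouped by the labelled group. Every library's value is given for rows with a group mean of at least 100 FPKM, for the 4 smallest p per direction and comparison, and for a list of known genes. Genes outside the families were named from the 4 with the smallest p over the 3 comparisons in their list. The members and lists were chosen with earlier results of these data known. Por, Nr1i3, LOC108348266 and the 2C7 rows were named outside that rule, after their values were seen. RefSeq's table for GRCr8 was used for names only, and 34 of 34 rows matched by symbol or synonym. The 21 alternatives were another pseudocount, other filters, other scalings, other forms of the fit, voom on recovered reads, the mitochondrial share, and leaving out libraries.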

Additional observations from a re-analysis of the deposited data

How the results depend on the processing

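No paired analysis was possible because replicate numbers follow sample order and pair nothing across groups. In 12 alternatives 0 P450 rows passed in any comparison. Leaving out 1 library at a time gave 0 in the first and second comparison and 0 to 1 in the third, the 1 being Cyp3a9 on the plus strand (2.05). The number of all genes called was 0 to 10 (model against normal control), 0 to 1 (pomegranate-high against model) and 0 to 6 (pomegranate-high against normal control). In the first comparison it was 0 with a pseudocount of 0.1, no filter, a mean FPKM of at least 5, quantile normalization, voom or the mitochondrial share as a covariate, 10 with quality weights and 2 without the 3 libraries of highest mitochondrial share. In the second it was 0 with no filter, median-of-ratios scaling, quantile normalization, a fit of the 2 groups alone, voom, the covariate or without those 3 libraries. In the third it was 0 with a pseudocount of 0.1, no filter, a mean of at least 5, TPM, the 2 groups alone, the covariate or without those 3 libraries, 1 with median-of-ratios scaling, quantile normalization, no trend or voom, and 6 with quality weights. Leaving out 1 library gave 0 to 1, 0 to 77 and 0 to 328 genes, the highest without pomegranate-high 3. Rows without overlap in the second comparison numbered 2 with no filter, TPM, median-of-ratios scaling or quantile normalization, and 16 without those 3 libraries. That exclusion gave 7 in the first comparison and 11 in the third comparison. It leaves 1 pomegranate-high library, assumed to vary like the others, and a single library often falls outside another group by chance. The share of all genes without overlap was not counted outside the main fit. No conclusion about P450 rows is therefore drawn from the counts of rows without overlap in the alternatives. Leaving out 1 library gave 5 to 9, 1 to 5 and 5 to 9 rows, since fewer libraries overlap less often. The median difference of the rows moved between 0.04 and 0.10, −0.236 and −0.0428, and −0.0844 and 0.0750 in those fits. TPM moved the median of all genes in the third comparison from 0.07 to −0.04. Of the named differences, those of Cyp1a2 (−0.12 with quality weights), Cyp2c24 (−0.0592) and Cyp2c22 (−0.16, both without the 3 libraries) turned in the second comparison. When 1 library was left out Cyp1a2 ranged from −0.0493 to 0.829 and Cyp2c22 from −0.0741 to 0.358. The cause was not tested. Depth limits Cyp1a1, Cyp1b1, Cyp2c24 and the rows with 0 to 2 reads.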
